A study of Mus musculus with 28 samples.

Results

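The expression of 9 genes of the enamel and dentin matrix, Amelx, Ambn, Enam, Amtn, Odam, Mmp20, Klk4, Dspp, and Dmp1, was examined in mouse molars before mineralization. The members were chosen by name and make up 9 of the 52636 genes in the RNAseq count table. The data are bulk RNAseq libraries of single first molar tooth germs, 7 each from E13 (bud stage), E14 (cap stage), and E16 (bell stage) embryos, where the labels give E13.5, E14.5, and E16.5. By their labels the teeth came from 7 embryos at E13, 6 at E14, and 5 at E16. At E13, a tooth whose embryo is written as X is counted as from a separate embryo. A second table adds 6 teeth of E15, each from an embryo of its own. The E13, E14, and E16 embryos were wild type C57BL/6JOlaHsd mice without treatment, and the paper describes no E15 teeth. Because a library holds the epithelium and the mesenchyme of a tooth germ together, fewer cells expressing a gene and less RNA per cell cannot be told apart.

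Enamel is laid down by ameloblasts, which differentiate from the dental epithelium, and dentin by odontoblasts, which differentiate from the dental mesenchyme. Both secrete a protein matrix that is subsequently mineralized, and enamel matrix is largely removed by proteases as the crystals grow. Most of the structural genes belong to one family, the secretory calcium-binding phosphoprotein genes, which lie in clusters and arose by duplication. In the mouse molar the secretion of these matrices becomes prominent only around birth, after the shape of the crown has been laid out at the cap and bell stages.

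Of the 9 genes, 4 were detected at E16, Ambn, Odam, Dmp1, and Enam, taking as detected more than 3 reads in at least 4 of the 7 teeth. The same 4 genes were detected at E14, whereas at E13 only Ambn and Dmp1 were. By this rule, 40.3% of all genes in the table were detected at E16, 39.3% at E14, and 39.2% at E13. Amtn was at 0 in all teeth of E13 and E16, and Mmp20 in all teeth of E14 and E16. Amelx, Dspp, and Klk4 had scattered reads that did not reach the limit of detection at any stage.

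**Figure D1:**
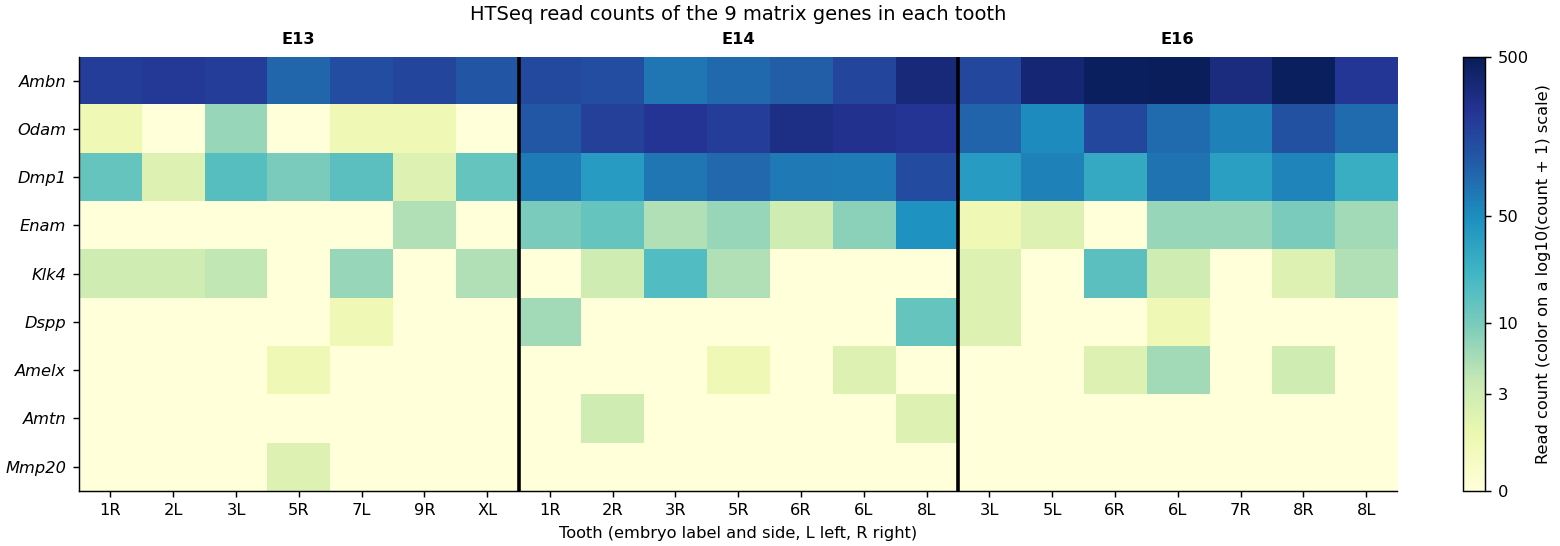
HTSeq read counts of the 9 genes (rows) in each of the 21 teeth (columns, with embryo label and side; black lines separate the stages), with color on a log10(count + 1) scale. Ambn has reads in every tooth, Odam has at most 7 reads in an E13 tooth and at least 52 later, and the rows of Amelx, Amtn, and Mmp20 are at or near 0 throughout, with at most 6 reads in a tooth.

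The genes that were detected lie close to genes that were not. On chromosome 5 of GRCm38, Odam (87885029 to 87894174), Amtn (88376108 to 88385916), Ambn (88455991 to 88468531), and Enam (88487975 to 88506049) follow each other on the plus strand. Dspp (104170712 to 104180127) and Dmp1 (104202613 to 104214102) are neighbors further along the same chromosome and strand. Amelx (X, 169176114 to 169187200, minus strand) lies within the bounds of Arhgap6 on the opposite strand, without shared exon bases. Mmp20 (9, 7628231 to 7674979) likewise overlaps the antisense gene AV064505 without shared exon bases, and Klk4 lies on chromosome 7 (43881160 to 43885804). The 130 bases upstream of the RefSeq start are shown for 6 genes, read 5′ to 3′ along the gene from GRCm38.p6. Of the undetected genes among them, Amtn lies near detected genes and Amelx on another chromosome. Capitals mark the letters CCAAT or, on the other strand, ATTGG. They also mark TTTAAA wherever it occurs. The letters TATAAA are marked in the same way, and in Amelx they run into the ATTGG that follows, with shared bases.
Ambn, chr5:88455861-88455990, plus strand: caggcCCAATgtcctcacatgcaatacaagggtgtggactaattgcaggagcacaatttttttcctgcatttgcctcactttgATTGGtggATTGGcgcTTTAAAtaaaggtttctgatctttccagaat
Odam, chr5:87884880-87885009, plus strand: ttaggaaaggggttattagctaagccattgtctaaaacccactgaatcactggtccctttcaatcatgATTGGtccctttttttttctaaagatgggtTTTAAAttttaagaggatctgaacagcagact
Dmp1, chr5:104202487-104202616, plus strand: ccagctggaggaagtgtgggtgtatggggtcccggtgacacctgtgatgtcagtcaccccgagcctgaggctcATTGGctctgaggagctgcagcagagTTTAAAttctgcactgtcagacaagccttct
Enam, chr5:88487845-88487974, plus strand: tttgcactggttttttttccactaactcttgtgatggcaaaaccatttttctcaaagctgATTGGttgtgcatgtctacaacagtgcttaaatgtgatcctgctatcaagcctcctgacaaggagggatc
Amtn, chr5:88375978-88376107, plus strand: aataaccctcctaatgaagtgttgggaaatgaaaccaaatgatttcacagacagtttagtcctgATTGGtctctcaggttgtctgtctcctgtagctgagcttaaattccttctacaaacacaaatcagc
Amelx, chrX:169187210-169187339, minus strand: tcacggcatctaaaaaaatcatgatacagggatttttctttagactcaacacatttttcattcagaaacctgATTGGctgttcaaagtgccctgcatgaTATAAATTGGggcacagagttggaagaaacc

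The first 4 of these genes were detected and the last pair was not. Upstream sequence of 250 bases was available for 9 starts of 8 members, Dmp1 having 2 starts and Dspp none. CCAAT in the reverse orientation was found in 7 of the 9 windows, in Odam, Amtn, Ambn, Enam, Amelx, and both starts of Dmp1, and not in Klk4 or Mmp20. Searched on both strands, CCAAT is present in 33.8% of 32851 windows of the same length, and in reverse orientation in 19.7%. TTTAAA, which reads the same on both strands, was found in Odam, Amtn, Ambn, and Dmp1, and is present in 12.1% of all windows. In Odam, Ambn, and the downstream start of Dmp1 it lies within 32 to 26 bases before the start, a position at which 0.228% of all windows hold it. TATAAA on either strand was found in Enam, Mmp20, and Amelx, compared with 12.4% of all windows. The motifs and their position were chosen after the sequences had been seen, and a match is not evidence of binding.

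The tissue and the libraries were examined before the levels of the genes. Totals ranged from 17814073 to 27115729 reads per tooth, and all 6 markers of the dental epithelium and all 6 of the dental mesenchyme had reads at every stage. The epithelial markers, in CPM (the share of a library's reads, scaled to a common total) summed over the list, had medians of 711, 1156, and 2281 in order of the stages. The mesenchymal markers had medians of 1951, 1966, and 1397. Of tissues that could be dissected along with the tooth germ, the 5 cartilage markers summed to 41.3 to 243 CPM and the 5 red cell markers to 24.0 to 84.9 CPM over all teeth. The 5 muscle markers summed to at most 41.4 CPM except for 201 CPM in the left tooth of embryo 7 at E13. The left tooth of embryo 8 at E14 stood apart by its bone markers, which summed to 1759 CPM compared with 695 to 1047 in the other E14 teeth. Its normalized count of Ibsp, a bone matrix gene, was 12396, with 429 to 2663 in the others. The left tooth of embryo 3 at E16 stood apart as a whole, its median Pearson's r with the other E16 teeth being 0.947 when those teeth had 0.974 to 0.981. It also had the lowest sums of the odontoblast, bone, epithelial, and mesenchymal markers at E16. Changes of the members between stages are therefore also given without these teeth where a value moved. Changes of all other genes are given with all teeth included.

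Ambn, which encodes ameloblastin, a structural enamel matrix protein that is also made outside enamel, was the member with the most reads at the bud stage. Normalized read counts (counts divided by DESeq2 size factors) at E13 ranged from 98.6 to 225 with a median of 157. At E14 they ranged from 65.4 to 299.5 with a median of 132, and at E16 from 171 to 423 with a median of 370. Teeth of E13 and E14 overlapped broadly. Of the E16 teeth, 5 were above every tooth of E14 and also above every tooth of E13, and the exceptions were the left teeth of embryos 3 and 8. The mean was 165 ± 44.8 for E13, 143 ± 77.2 for E14, and 323 ± 99.7 for E16 (SD, n = 7 each).

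**Figure D2:**
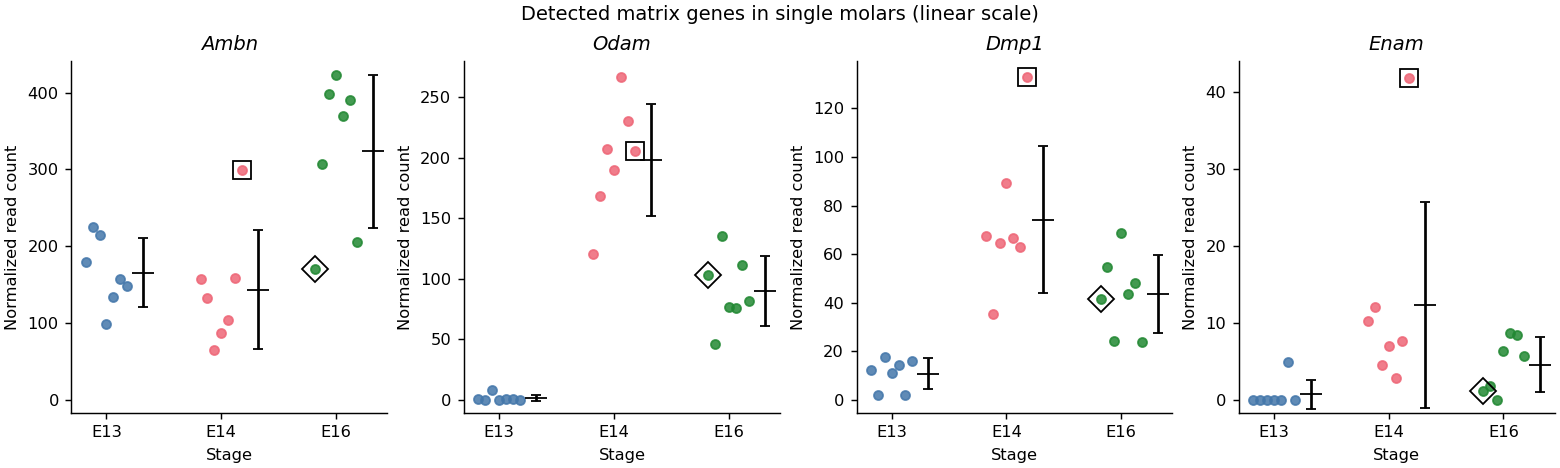
Normalized read counts of the 4 detected genes in single molars of E13, E14, and E16 on linear axes, each point a tooth, with horizontal marks and bars giving the mean and SD. The square marks the left tooth of embryo 8 at E14, which is highest of its stage for Ambn (299.5), Dmp1 (133), and Enam (41.9), and the diamond the left tooth of embryo 3 at E16.

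Odam, which encodes a secreted protein of maturation stage ameloblasts and the junctional epithelium, was near absence at the bud stage. At the cap stage it had reads in every tooth, with a mean of 8.54 CPM. At E13 its normalized counts ranged from 0 to 7.79 with a median of 0.942, and 3 of the 7 teeth had none. At E14 they ranged from 121 to 266 with a median of 206, and at E16 from 46.5 to 135 with a median of 81.8. All teeth of E14 and E16 were above all teeth of E13, and 6 of the 7 teeth of E16 were below all teeth of E14. The means were 1.52 ± 2.80, 198 ± 46.2, and 90.1 ± 28.9 (SD, n = 7 each).

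Dmp1, which encodes an acidic phosphoprotein of the dentin and bone matrix, had a low level in the bud stage and a higher one afterwards. At E13 its normalized counts ranged from 1.96 to 17.8 with a median of 12.3. At E14 they ranged from 35.4 to 133 with a median of 66.6, and at E16 from 23.8 to 68.7 with a median of 43.5. As for Odam, the teeth of E13 did not overlap with those of the later stages, whereas 2 teeth of E16 were below all of E14 and 2 teeth of E14 above all of E16. The means were 10.7 ± 6.36, 74.1 ± 30.3, and 43.4 ± 16.1 (SD, n = 7 each).

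Enam, which encodes enamelin, the largest of the structural enamel proteins, had few reads even where it was detected. At E13, 6 of the 7 teeth had none and the right tooth of embryo 9 had a normalized count of 4.91. At E14 all teeth had reads, and the normalized counts ranged from 2.89 to 41.9 with a median of 7.62. At E16 they ranged from 0 to 8.69 with a median of 5.71, and 6 of the 7 teeth had reads. The means were 0.701 ± 1.85, 12.3 ± 13.4, and 4.58 ± 3.58 (SD, n = 7 each). Without the left tooth of embryo 8, the highest value of E14 was 12.1 and the mean 7.40.

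Among the genes that were not detected, Amelx encodes amelogenin, which makes up most of the forming enamel matrix. It had 1 read in all E13 teeth together, 3 at E14, and 11 at E16, the last in 3 teeth with at most 6 reads in a tooth. Amtn, which encodes amelotin of the maturing enamel surface, had 5 reads in 2 teeth of E14 and none at the other stages. Both genes were thus at 0 in most teeth of every stage. For Amtn, 0 reads of 155927761 at E13 allow a level of up to 0.0192 CPM, and 0 of 169904790 at E16 up to 0.0177 CPM. These limits take 3 reads over the stage and cover counting error only.

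Of the enamel proteases, Mmp20 encodes enamelysin, which cleaves the matrix during secretion, and Klk4 encodes the kallikrein that degrades it during maturation. Mmp20 had 2 reads in 1 tooth of E13 and none in any tooth of E14 or E16, where 0 reads allow up to 0.0176 and 0.0177 CPM. Klk4 had reads at all stages, 22, 25, and 27 in total, in 5, 3, and 5 of the 7 teeth. Its normalized counts ranged from 0 to 6.63 at E13, from 0 to 15.4 at E14, and from 0 to 12.9 at E16, without an order among the stages. In an edgeR fit of all genes with a read, the log2 difference of Klk4 between E16 and E13 was 0.08 ± 0.97 (SE, adjusted p = 1.0).

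Dspp, the source of the major non-collagenous proteins of dentin, had 19 reads at E14 but only 1 at E13 and 3 at E16. The reads of E14 came from 2 teeth, the left tooth of embryo 8 with 13 and the right tooth of embryo 1 with 6. The other 5 teeth of E14 were at 0. The same tooth of embryo 8 was the highest of E14 for Ambn, Enam, and Dmp1 as well, but not for Odam, for which it had 206 with 121 to 266 in the others.

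Because longer transcripts yield more reads, levels of different genes were compared per kilobase of exon. Among the detected genes of each stage, Odam included at E13 although it was not detected, the order was as follows. At E13, Ambn was at 86.1 ± 23.4 normalized counts per kb, Dmp1 at 3.89 ± 2.30, and Odam at 1.11 ± 2.04 (SD, n = 7 each). At E14 the detected genes were Odam at 144 ± 33.6, followed by Ambn at 74.7 ± 40.2, Dmp1 at 26.8 ± 11.0, and Enam at 2.24 ± 2.44. At E16 the detected genes were Ambn at 169 ± 52.0, Odam at 65.48 ± 20.997, Dmp1 at 15.7 ± 5.81, and Enam at 0.834 ± 0.653. Klk4, with its scattered reads, was at 2.66 ± 2.13, 2.66 ± 4.55, and 2.77 ± 3.58 in the 3 stages, and the teeth of Klk4 and Enam overlapped at E14 and E16. Ambn was above Odam in all 7 teeth of E13 and of E16, whereas Odam was above Ambn in 6 of the 7 teeth of E14, the exception being the left tooth of embryo 8. Ambn was above Dmp1 and above Enam in all teeth of every stage.

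Between bud and cap stages, 2 of the 3 genes that passed the filter on low counts rose and none fell. Odam rose by 6.94 ± 0.42 on the log2 scale (SE, adjusted p = 1.69e-11) and Dmp1 by 2.78 ± 0.38 (adjusted p = 8.95e-06), which correspond to 122-fold and 6.87-fold. The difference for Ambn was -0.21 ± 0.27 (adjusted p = 0.642). The other 6 genes did not pass the filter, and Odam and Dmp1 passed it only through the stages at which they are high. Of the 10 reads of Odam at E13, 7 came from the left tooth of embryo 3, and without that tooth, which leaves 3 reads, the log2 difference was 8.28. In this edgeR fit (quasi-likelihood F test, p adjusted by Benjamini and Hochberg), 11.3% of the 19101 genes tested were higher and 8.47% lower at E14 than at E13. Without the left tooth of embryo 8, Odam and Dmp1 differed by 6.92 and 2.57, and Ambn by -0.50 (adjusted p = 0.158).

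Enam did not pass the filter and was tested with all genes that had a read. In that fit it was 3.86 ± 0.91 higher at E14 than at E13 on the log2 scale (SE, edgeR adjusted p = 0.00462). Of the genes tested in the fit, 9.35% were called in either direction between these stages. In an exact permutation test over the teeth, the mean of log2(normalized count + 1) was 2.94 higher at E14 (two-sided, adjusted p over 3 stage comparisons = 0.00524). Without the left tooth of embryo 8 the difference was 2.59 and adjusted p = 0.00699 in the exact test. That adjustment covered only the comparisons with E14, not all 3. In the fit of all genes with a read, Amtn (adjusted p = 0.155), Dspp (adjusted p = 0.105), and Amelx (adjusted p = 0.655) were not called.

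From cap to bell stage, 1 of the 3 genes that passed the filter rose and 1 fell. Ambn rose by 1.17 ± 0.27 on the log2 scale (SE, edgeR adjusted p = 0.00155), or 2.25-fold. Odam fell by 1.14 ± 0.26 (adjusted p = 0.00173), a 2.20-fold change. Dmp1 was -0.77 ± 0.34 and did not pass the threshold (adjusted p = 0.0885). Without the left tooth of embryo 8 at E14 it was -0.55 (edgeR adjusted p = 0.252, range over alternatives 0.0297 to 0.252). Of all genes tested, 15% were higher and 13.1% lower at E16 than at E14. Without the left tooth of embryo 8 at E14 the difference for Ambn was 1.48, and without the left tooth of embryo 3 at E16 it was 1.29. For Enam the log2 difference was -1.42 ± 0.75 in the fit of all genes with a read (adjusted p = 0.223), in which 14% of genes were called. The exact permutation test gave -1.21 for the same comparison (adjusted p = 0.0798).

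Over the whole span from bud to bell stage, Ambn, Dmp1, and Odam were higher at E16. Odam rose by 5.80 ± 0.43 on the log2 scale (SE, edgeR adjusted p = 8.25e-11), Dmp1 by 2.01 ± 0.38 (adjusted p = 0.000147), and Ambn by 0.96 ± 0.26 (adjusted p = 0.00484). The corresponding changes were 55.6-fold, 4.02-fold, and 1.95-fold. That of Odam is set against the 10 reads of E13, and without the left tooth of embryo 3 at E13 its log2 difference was 7.15. As above, Odam and Dmp1 passed the filter only through E14 and E16. Of all genes tested, 21.6% were higher and 19.6% lower at E16 than at E13. The comparisons share the teeth of each stage, and the values of a gene in them are therefore not independent. Enam was 2.44 ± 0.93 higher at E16 in the fit of all genes with a read, which did not pass the threshold (adjusted p = 0.0585), and 21.8% of genes were called there. The exact permutation test over the teeth gave 1.73 (adjusted p = 0.0376) and DESeq2 gave 2.64 (adjusted p = 0.0304), so that the call for Enam at E16 depends on the test. Amelx, with its 11 reads at E16, was not called in the fit of all genes with a read (adjusted p = 0.142). In the salmon table it had no estimated counts at E13, and it was called when all genes with a count were fitted (edgeR adjusted p = 0.0434), where 35.1% of genes were called. DESeq2 did not call Amelx in that table (adjusted p = 0.462), and it did not pass the filter there, so that its call at E16 also depends on the table and the test.

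The E15 teeth were compared within the second table, which holds estimated counts for 14185 genes, including Amelx, Ambn, Odam, and Dmp1 but none of the other members. Whether the E15 teeth were dissected and sequenced together with those of E13 and E16 is not given in the sources used here. Differences of E15 from the other stages therefore cannot be told apart from differences in handling. The 13 teeth of E13 and E16 that could be matched one to one between the tables had 3326 estimated counts of Ambn compared with 3393 HTSeq reads. Ambn at E15 ranged from 246 to 400 normalized estimated counts with a median of 331, above all teeth of E13, which reached 216. The E16 teeth of the same table ranged from 184 to 398. Ambn was 1.07 ± 0.20 higher at E15 than at E13 on the log2 scale (SE, edgeR adjusted p = 0.00026).

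Odam had its widest range in this table among the teeth of E15, from 33.7 to 224 with a median of 101. All of these were above the E13 teeth, which reached 5.56, and they spanned the whole range of the E16 teeth, 44.5 to 126. Odam was 6.38 ± 0.58 higher at E15 than at E13 on the log2 scale (SE, edgeR adjusted p = 1.51e-08), and 7.43 without the left tooth of embryo 3 at E13. Dmp1 ranged from 11.4 to 32.8 at E15, from 1.96 to 17.8 at E13, and from 23.3 to 66.4 at E16. The E15 teeth of Dmp1 thus overlapped with both stages. The differences of Dmp1 were 1.05 ± 0.44 from E13 to E15 (adjusted p = 0.0803) and 1.17 ± 0.41 from E15 to E16 (adjusted p = 0.106). Amelx had 1 estimated count in 1 of the 6 teeth of E15.

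**Figure D3:**
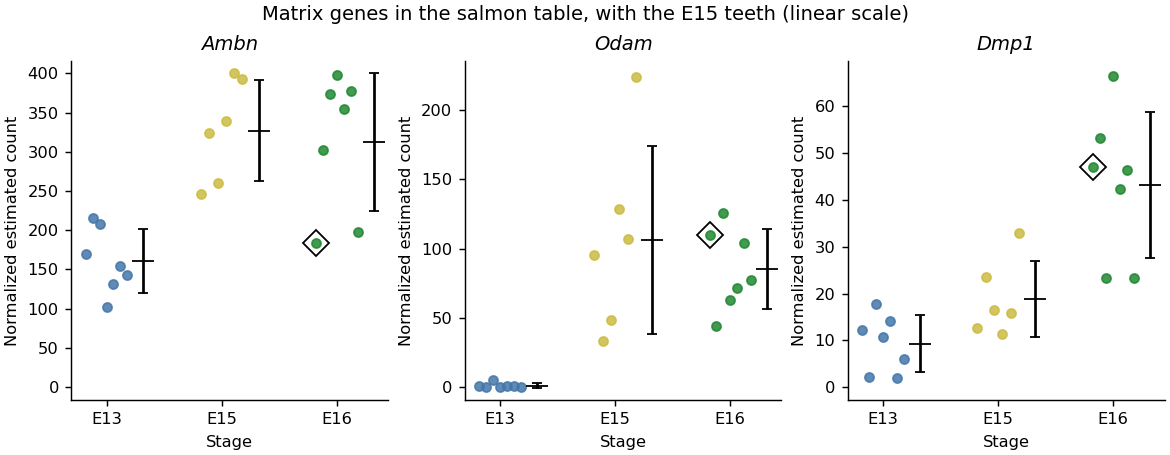
Normalized estimated counts of Ambn, Odam, and Dmp1 in single molars of E13, E15, and E16 in the salmon table on linear axes, each point a tooth, with horizontal marks and bars for the mean and SD; the diamond is the left tooth of embryo 3 at E16. The E15 teeth of Ambn sit at 246 to 400, in the range of most E16 teeth, whereas those of Dmp1 at 11.4 to 32.8 overlap with both neighbors.

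Of the 3 members tested in this table, 2 were thus higher at E15 than at E13, beside 18.3% of all genes. Odam, with at most 5 estimated counts in an E13 tooth, passed the filter only through E15 and E16. Between E15 and E16 none of the 3 was called by edgeR, where 6.33% of all genes were called in either direction, and 1 of them, Dmp1, had an unadjusted p below 0.05. DESeq2 called Dmp1 between E15 and E16, with a log2 difference of 1.20 and adjusted p = 0.0377, the range over the alternatives being 0.0377 to 0.209. The difference from E15 to E16 was -0.09 ± 0.20 for Ambn (adjusted p = 0.893) and -0.34 ± 0.38 for Odam (adjusted p = 0.742). Teeth of E14 are not part of this table, and E14 and E15 were not compared.

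Ambn and Dmp1 are also known from bone, and the alveolar bone forms beside the tooth germ. The levels were therefore set beside 13 markers of osteoblasts and osteocytes, all of which had reads at every stage. Of the 8 that passed the filter, 1 was higher at E14 than at E13 and none lower, and 2 were higher and 1 lower at E16 than at E14. The marker higher at E14 was Spp1, which passed the filter only through E14 and E16. Their summed level lay between 659 and 1200 CPM in E13 teeth, 695 and 1759 in E14 teeth, and 881 and 1458 in E16 teeth. At E14 and at E16, the tooth with the most Ambn had the highest sum and the tooth with the least Ambn the lowest. At E13 the tooth with the least Ambn also had the lowest sum, but the left tooth of embryo 2, with the most Ambn, had a sum of 794 CPM, below the median of 867. Within E14, the left tooth of embryo 8 had the highest value for 8 of the 13 markers, Ibsp, Ifitm5, Sp7, and Alpl among them, and not for the other 5, which are Bglap, Bglap2, Spp1, Sost, and Fgf23. Ibsp, Sp7, and Ifitm5 were not called between any of the stages, and their edgeR log2 differences between E14 and E13 were 0.61 ± 0.58, -0.14 ± 0.22, and 1.08 ± 0.42 (SE, adjusted p = 0.493, 0.713, and 0.07). Osteocalcin (Bglap), a marker of mature osteoblasts, had means of 4.92, 11.1, and 3.54 normalized counts at E13, E14, and E16. The part of bone in the levels of Ambn and Dmp1 was not tested.

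**Figure D4:**
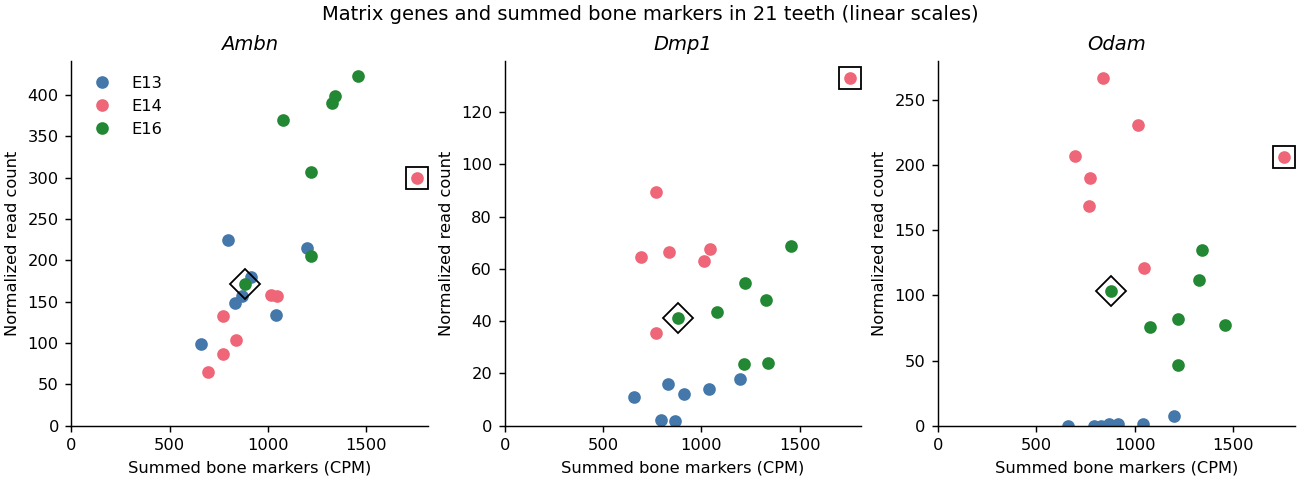
Normalized read counts of Ambn, Dmp1, and Odam against the CPM summed over 13 bone markers in the 21 teeth on linear axes, with colors for the stages. The square is the left tooth of embryo 8 at E14, at 1759 CPM, and the diamond the left tooth of embryo 3 at E16, at 881 CPM; the Odam values of E13 lie near 0 at every level of bone markers.

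By the labels, both teeth of an embryo were present in 3 cases. The levels of Odam in the left and right teeth of embryo 6 were 230.5 and 266 at E14, and those of Dmp1 were 62.9 and 66.6. At E16 the left tooth of embryo 6 had 68.7 normalized counts of Dmp1 and the right tooth 24.1, and the left and right teeth of embryo 8 had 205 and 390.0 of Ambn. The teeth of one embryo thus differed by up to 2.85-fold in the genes with means above 10 at that stage.

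Over the 21 teeth, the genes most similar to Ambn in log2(normalized count + 1) included Smpd3, 2610528J11Rik, Mien1, and Mxra8, with Pearson's r from 0.884 to 0.814. Smpd3 encodes a sphingomyelinase needed for skeletal mineralization. The genes most similar to Odam were Grin2a, Me3, Gm29040, P2rx7, and Hivep2, with r from 0.964 to 0.941. Of these, Me3 was at 41.7 ± 14.9, 355 ± 63.3, and 163 ± 11.1 normalized counts in the 3 stages (SD, n = 7 each). The genes most similar to Dmp1 were P2rx7, Dusp5, Ggt1, Galnt15, and Gcnt4, with r from 0.894 to 0.861. P2rx7, which encodes an ATP-gated ion channel, was thus near both, and its means were 21.6, 154, and 92.0. The r of Odam and Dmp1 was 0.849, and that of Ambn was 0.107 with Odam and 0.0547 with Dmp1. These values describe libraries that share the stages and carry no test.

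Other members of the phosphoprotein family and their Sparc relatives were also examined. Of the 9 genes listed, 8 were found in the table and 4 passed the filter, of which 3 were higher at E14 than at E13 and 1 was higher at E16 than at E14. Of all genes tested, 11.3% were higher in the first comparison and 15% in the second. Their median log2 difference was 0.67 in the first comparison and 0.32 in the second, with medians of -0.01 and 0.00 over all genes. Spp1, which encodes osteopontin of bone and other mineralized tissues, rose by 4.68 ± 0.47 between E13 and E14 (SE, edgeR adjusted p = 8.78e-08), with means of 7.62 and 198 normalized counts. With so few reads at E13, it passed the filter only through E14 and E16. Spp1 did not pass the threshold between E14 and E16 (0.20 ± 0.34, adjusted p = 0.704). Sparcl1, which encodes a secreted relative of osteonectin, rose between E14 and E16 by 1.20 ± 0.12 (adjusted p = 5.29e-08). The milk casein genes Csn1s1 and Csn2, which belong to the family but have no known part in teeth, were at 0 in all 21 teeth.

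Genes that regulate ameloblasts rose while Amelx, Amtn, and Mmp20 stayed at or near 0. Of 9 transcription factors of the ameloblast lineage, 5 were higher and 1 lower at E14 than at E13, and 8 were higher and none lower at E16 than at E14. Their median log2 difference was 0.58 in the first comparison and 0.93 in the second. Msx2 rose by 2.15 ± 0.21 between E14 and E16 (SE, edgeR adjusted p = 2.39e-08), Sp6 by 1.40 ± 0.19 (adjusted p = 3.42e-06), Satb1 by 1.37 ± 0.10 (adjusted p = 1.82e-10), and Dlx3 by 0.94 ± 0.25 (adjusted p = 0.00538). Sp6, which encodes the zinc finger factor epiprofin, had already risen by 4.35 ± 0.22 between E13 and E14 (adjusted p = 1.51e-12). The sum of these factors was lowest at E16 in the left tooth of embryo 3, at 992 CPM compared with 1214 to 1652 in the others.

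Of 16 other genes required for normal enamel, 15 passed the filter. Between E13 and E14, 5 were higher and 1 lower, and between E14 and E16, 7 were higher and 2 lower, with median log2 differences of 0.28 and 0.23. Perp, a desmosome gene, rose by 1.50 ± 0.11 between E14 and E16 (SE, edgeR adjusted p = 1.82e-10). Col17a1, a hemidesmosome collagen gene, rose by 1.09 ± 0.15 (adjusted p = 3.48e-06). Slc24a4, an ion exchanger gene of maturation stage ameloblasts, fell by 1.76 ± 0.47 (adjusted p = 0.00615). The genes that rose include cell adhesion genes, Lama3, Col17a1, and Perp among them, which are expressed in epithelia in general, and all 6 markers of the dental epithelium rose in both comparisons. The part of the share of epithelium in these changes was not tested.

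**Figure D5:**
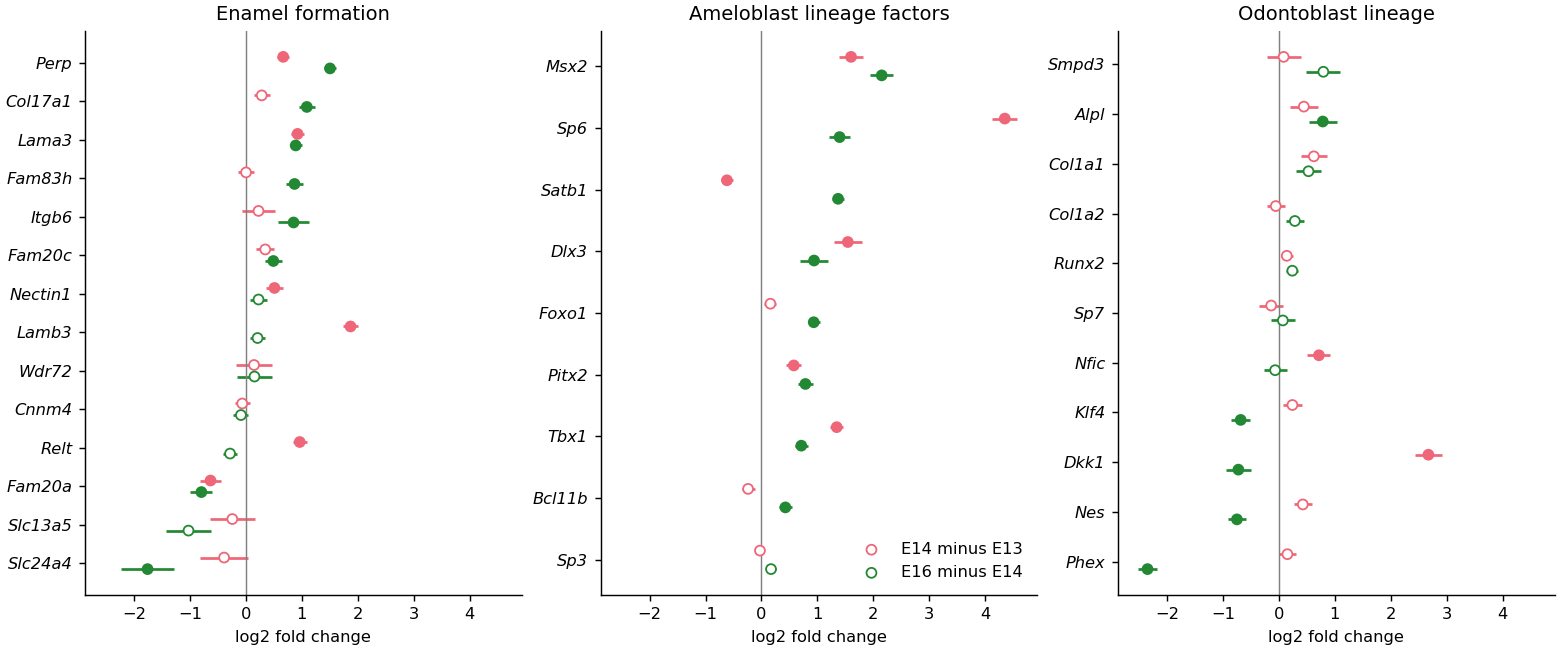
Log2 fold changes of 14 genes required for enamel formation, transcription factors of the ameloblast lineage, and genes of the odontoblast lineage between E13 and E14 (red) and between E14 and E16 (green), with bars for SE and filled symbols for edgeR adjusted p below 0.05. In the middle panel 8 of the 9 factors are filled and to the right of 0 for E16 minus E14.

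Of 11 genes of odontoblasts and their precursors, all passed the filter. Between E13 and E14, 2 were higher and none lower, and between E14 and E16, 1 was higher and 4 lower, with median log2 differences of 0.24 and 0.07. Phex, which encodes an endopeptidase of mineralizing cells, fell by 2.35 ± 0.17 between E14 and E16 (SE, edgeR adjusted p = 1.74e-10). Nes, an intermediate filament gene, was lower by 0.75 ± 0.16 on the log2 scale (adjusted p = 0.000849). The Wnt inhibitor gene Dkk1 rose by 2.67 ± 0.24 between E13 and E14 (adjusted p = 1.66e-08) and fell by 0.72 ± 0.22 between E14 and E16 (adjusted p = 0.0164). Alpl, the phosphatase gene of mineralizing tissues, rose by 0.78 ± 0.25 between E14 and E16 (adjusted p = 0.0208). The summed level of the list at E16 was 3093 CPM in the left tooth of embryo 3 and 7885 to 10075 CPM in the others. That tooth had 1353 normalized counts of Alpl, with 4972 to 6605 in the others, and 570 of Nes, with 1228 to 1552. The changes of this list were not recomputed here without it.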

How the data were processed

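Libraries of single molar tooth germs were grouped by the embryonic day of the labels. The authors filtered the reads, aligned them with STAR to GRCm38, and deposited HTSeq counts per gene without normalization. Whether the counting used strand is not given in the sources used here. The salmon table deposited by the authors holds each estimated count as a whole number, for E13, E15, and E16, and 1 E15 sample was not analysed here. One E13 column whose embryo is written as X was used as an E13 tooth without a number.

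Stages were compared with the quasi-likelihood test of edgeR (4.0.16, R 4.3.3) in one fit of 21 teeth after TMM scaling. Low counts were removed with filterByExpr (19101 genes remained), with Benjamini-Hochberg adjustment at 0.05. The salmon table was fitted separately, with 13447 genes. The edgeR fit was tested on simulated data for E14 against E16 (18816 genes), where it recovered 76.6% of 94 genes changed by 1 on the log2 scale and 97% of 99 changed by 2, with 10 false calls. Levels are counts divided by DESeq2 (1.42.0) size factors, with SD over teeth. Totals per library were 17814073 to 27115729 counts, so that 3 reads are 0.111 to 0.168 CPM. These limits of 3 reads cover counting error only, whereas SE and SD include the spread between teeth.

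Alternatives were DESeq2, its size factors, no filter, side, embryo number, summed embryos, and each tooth left out. Since 5 of the teeth at E14 and 3 at E16 came from embryos with 1 tooth, and the others from 3 embryos with both, p-values treat teeth as independent. The members and the gene lists were chosen with earlier results of these data known. The genes named are all members, up to 4 of each list with the largest called change between E14 and E16 together with list genes at 0, and the 5 genes most similar to a member. Genes named for the teeth that stand apart, Spp1, and those named for changes at E14 were chosen after their values were seen, as was the permutation test of Enam. Names, coordinates, and exon lengths are from GENCODE M21, and upstream sequences from RefSeq (GRCm38.p6). Of the listed genes, 1 was not matched. Some genes that these rules would name are not reported here. Python 3.11.15 was used for values and figures.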

Additional observations from a re-analysis of the deposited data

Results flagged for a closer look

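The left tooth of embryo 8 at E14 lay apart from the other 6 teeth of its stage for Ambn, with a normalized count of 299.5 compared with 65.4 to 158. The same tooth lay apart for Enam, with 41.9 compared with 2.89 to 12.1. In each case the gap to the nearest tooth exceeded the critical share of the range in Dixon's test (0.568 for 7 teeth). Chance flags about 1 in 20 groups, and 13 groups were examined. The tooth also had the highest sum of bone markers at E14, 1759 CPM compared with 695 to 1047, and the part of bone in these values was not tested.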

How the results depend on the processing

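Of 616 values recomputed under alternatives, 607 were classed as the same. For log2 differences this means that direction and side of the threshold were kept, or that the move was less than the spread. Numbers of members called were in part classed as the same although they changed, such as 3 in place of 2 between E13 and E14 with DESeq2. With each tooth left out, the members called between E13 and E14, between E14 and E16, and between E13 and E16 stayed at 2, 2, and 3, and those called between E13 and E15 at 2 to 3. Enam made 3 between E13 and E14 with DESeq2 and with all genes with a read, and 4 between E13 and E16 with DESeq2. With the embryo numbers as a block, 3 were called between E14 and E16 and 2 between E13 and E16. Without the left tooth of embryo 3 at E13, Dmp1 was called between E13 and E15 (1.27, edgeR adjusted p = 0.0435, range over alternatives 0.0435 to 0.206). DESeq2 called 1 member between E15 and E16, where edgeR called none. With at least 1 read, 4 members were detected at E13, and with all 7 teeth required, 1. With at least 10 reads or all 7 teeth, 3 were detected at E14 and at E16 (Enam lost), and with at least 1 read, 5 at E16 (Klk4 gained). With each E16 tooth left out, 3 to 4 members were detected at E16, Enam being the one lost. Differences near 0 between E15 and E16 turned sign, for Odam without the left tooth of embryo 8 at E15 (range with each tooth left out -0.52 to 0.017) and for Ambn without the left tooth of embryo 3 at E16 (range -0.16 to 0.0047).

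The embryo numbers of different stages belong to different animals, and deviations of teeth with the same number correlated with a median r of 0.0357 (range -0.09 to 0.199, 15 pairs). With the number as a replicate block, the call of Ambn between E13 and E16 was lost (0.72, edgeR adjusted p = 0.137, range over alternatives 0.000284 to 0.137) and Dmp1 between E14 and E16 was called (-0.97, adjusted p = 0.0297, range 0.0297 to 0.252). The cause was not tested. The depth limits what can be said of the 5 members with scattered reads.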
